A study of Mus musculus with 6 samples.

Results

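The 9 genes described here encode transforming growth factor beta (TGF-beta) ligands, their receptors and parts of the response to them, and were found by symbol among the 35275 genes of the deposited table. They are the ligands Tgfb1, Tgfb2 and Tgfb3, the activin subunit Inhba, the receptors Tgfbr1 and Tgfbr2, the signal transducer Smad3, the inhibitor Smad7 and the induced matrix protein gene Tgfbi. RNA was sequenced from tumour-associated macrophages sorted as CD11b+ F4/80+ Ly6G- Ly6C- cells. The 3 libraries labelled Atg5 KO came from female MMTV-PyMT mice with Atg5flox/flox and LysMcre, and the 3 labelled Atg5 WT from female MMTV-PyMT mice with Atg5flox/flox and no Cre. All mice were of the FVB/NJ strain and 65 days old, and every animal carried the floxed allele and the tumour transgene. MMTV drives the polyoma middle T oncogene in mammary epithelium, and LysMcre is a Cre inserted into the lysozyme gene Lyz2, which is active in macrophages and also in neutrophils, so this Cre is not limited to tumour macrophages.

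TGF-beta ligands are secreted in a latent complex and act after release from it. The active ligand joins the type II receptor to the type I receptor, which phosphorylates Smad2 and Smad3, and these enter the nucleus with Smad4. Smad7 is induced by the same signal and blocks the type I receptor. Macrophages are a known source of Tgfb1 in tumours, and TGF-beta dampens inflammatory genes in them.

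The deposited FPKM values (reads scaled by gene length and by library size) corresponded to between 18770262 and 21173301 whole reads per library. Atg5 (chromosome 10, 44268358 to 44364291, mm10) had an FPKM of 14.0, 16.6 and 17.4 in the Atg5 KO-labelled libraries and 5.15, 5.11 and 5.28 in those labelled Atg5 WT, against the direction of the label. The FPKM is a sum over the whole gene, and the sources used here do not give the floxed exon, so this value is no check of the deletion. Lyz2, at the Cre locus, went with the labels, with an FPKM of 12.1 ± 3.85 in Atg5 KO-labelled and 4446 ± 2267 in Atg5 WT-labelled libraries (SD, n = 3 each). It was the 1 gene called among all tested (limma-trend adjusted p = 0.0306). The Cre and the low Lyz2 level went with the Atg5 KO label in every library, so their parts in any difference cannot be told apart from that of Atg5. Macrophage markers such as C1qa and C1qb were high in every library, and none of the 12 listed markers was at 0 in all 6 libraries. Markers of other cells were present too. Krt8, an epithelial keratin, stood at 302, 105 and 49.0 in the Atg5 KO-labelled libraries and 474, 798 and 108 in those labelled Atg5 WT. Atg5 WT replicate 2 stood apart, at the far end of a first principal component that held 74.99% of the variance, with the lowest macrophage score (6.91) and the highest epithelial score (6.64), each score being the mean log2(FPKM + 1) of a marker list. Differences that moved by over 1.5 times without that library are given with and without it.

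None of the 9 genes passed the test between the groups. limma-trend, fitted over the 12332 genes whose mean FPKM reached 1 and adjusted over all of them by the Benjamini-Hochberg method, called 0 of the 9 at an adjusted p under 0.05, against 0.00811% of all genes. At an unadjusted p under 0.05 it called 0 of the 9, against 10% of all genes (4.84% higher and 5.17% lower). The adjusted p of the 9 ran between 0.492 and 0.915. At an adjusted p under 0.05 without Atg5 WT replicate 2, it again called 0 of the 9, against 0.15% of 12003 genes. The mean in the Atg5 KO-labelled libraries was higher for 4 genes and lower for 5, against 37.2% and 62.8% of all tested genes. The directions given are by label, with which Lyz2 goes and gene-level Atg5 does not. The median log2 difference of the 9 was -0.07, beside -0.09 for all tested genes. The median of all genes moved to 0.03 with quantile normalization and to 0.05 with limma-voom. With these the 9 split into 5 higher and 4 lower, because Inhba changed sign. Without Atg5 WT replicate 2, 1 of the 9 was higher, 8 were lower and the median was -0.26, beside -0.02 for all genes; the groups then did not overlap for 3 of the 9, 33.3%, against 26.6% of all genes.

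**Figure D1:**
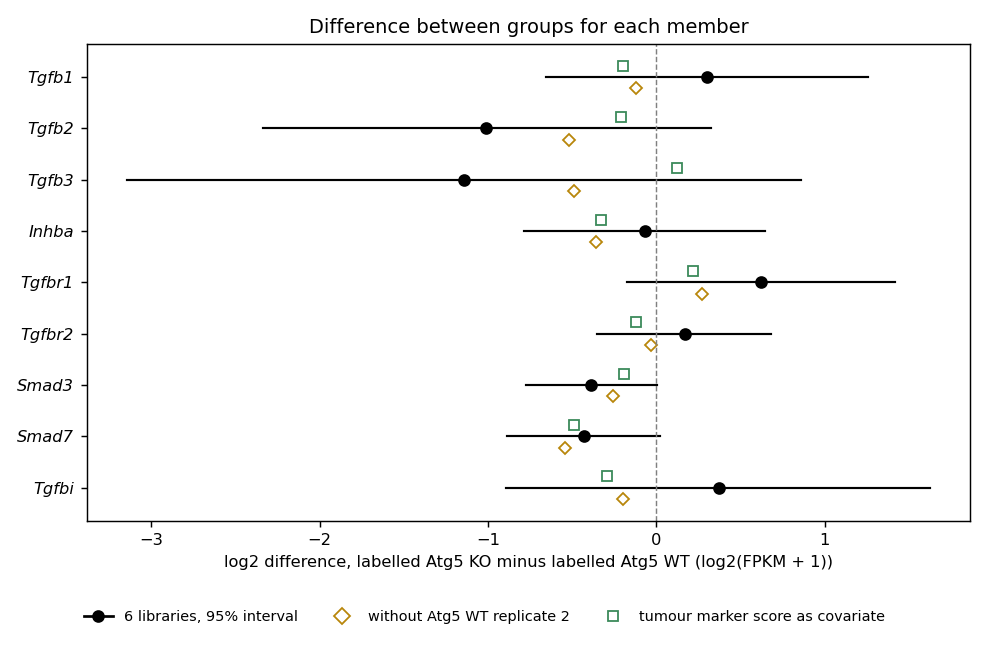
Log2 difference of each gene (labelled Atg5 KO minus labelled Atg5 WT, on the log2(FPKM + 1) scale) with its 95% interval from limma-trend over 6 libraries, and the same value without Atg5 WT replicate 2 or with the epithelial marker score as a covariate. Every interval over 6 libraries includes 0, and Tgfb1, Tgfbr2 and Tgfbi change sign under both alternatives.

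Tgfb1 (chromosome 7, 25687002 to 25705077), the principal TGF-beta ligand of immune cells, was the most abundant of the 3 ligands in 5 of 6 libraries. Its FPKM was 129, 176 and 149.9 in the Atg5 KO-labelled libraries and 138, 67.6 and 193 in those labelled Atg5 WT. The Atg5 KO values lay inside the range of the Atg5 WT values, whose lowest was replicate 2. This made a log2 difference of 0.30 (SE 0.39, 95% interval -0.66 to 1.26; limma-trend adjusted p = 0.697), and this difference was -0.12 without Atg5 WT replicate 2.

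Tgfb3 (chromosome 12, 86056744 to 86079041), a ligand best known from epithelium and mesenchyme, varied 9.42-fold over the 6 libraries. It stood at 33.7, 12.2 and 9.75 in the Atg5 KO-labelled libraries and at 43.2, 91.9 and 11.9 in those labelled Atg5 WT. The groups overlapped, and the highest value was that of Atg5 WT replicate 2, in which Tgfb3 exceeded Tgfb1. The groups differed on the log2 scale by -1.14 (SE 0.81, 95% interval -3.14 to 0.86; limma-trend adjusted p = 0.547). This difference was -0.49 without Atg5 WT replicate 2 and 0.12 after adding the epithelial score as a covariate.

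Tgfb2 (chromosome 1, 186623186 to 186705992), the third ligand, was low among the tested genes, with 16.0% of them below its mean FPKM. It varied in the same libraries as Tgfb3. The FPKM of Tgfb2 was 1.89, 0.725 and 0.638 in the Atg5 KO-labelled libraries and 3.24, 6.94 and 0.970 in those labelled Atg5 WT. These values rest on 189, 71 and 60 reads in Atg5 KO-labelled and 292, 633 and 86 reads in Atg5 WT-labelled libraries. The exact 95% Poisson interval of the lowest value, in Atg5 KO replicate 3, was 0.487 to 0.821 FPKM and covers counting error alone. The difference in log2 units was -1.01 (SE 0.54, 95% interval -2.34 to 0.32; limma-trend adjusted p = 0.51), and this difference was -0.52 without Atg5 WT replicate 2 and -0.21 after adding the epithelial score as a covariate.

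Inhba (chromosome 13, 16011851 to 16027211), whose product pairs with itself to form activin A, was the lowest of the 9 genes by mean FPKM. Tgfb2 exceeded it in just 2 of 6 libraries. Inhba had an FPKM of 1.91, 1.33 and 2.05 in the Atg5 KO-labelled libraries and 2.33, 0.927 and 2.72 in those labelled Atg5 WT, from 79, 54 and 80 reads in Atg5 KO-labelled and 87, 35 and 100 reads in Atg5 WT-labelled libraries. The groups overlapped, and the Atg5 WT libraries held both the highest and the lowest value. On the log2 scale the difference was -0.07 (SE 0.29, 95% interval -0.78 to 0.65; limma-trend adjusted p = 0.915), and this difference was -0.36 without Atg5 WT replicate 2.

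The ligand genes Tgfb1 and Tgfb2, which were at their lowest and highest level in Atg5 WT replicate 2, differ in the letters before their starts, and Tgfbi is shown with them because its values had the library order of Tgfb1. Windows are 250 bases before the start of the gene, 5′ to 3′ on the gene's strand, from RefSeq on GRCm38.p6, where 7 of the 9 genes had an entry. Capitals mark the letters GGGCGG (the GC box core), TATAAA (the TATA element), CACGTG (an E-box core) and CAGAC (the SMAD element), searched on both strands, and no marked matches overlap in these windows.
Tgfb1, chr7:25686752-25687001, plus strand: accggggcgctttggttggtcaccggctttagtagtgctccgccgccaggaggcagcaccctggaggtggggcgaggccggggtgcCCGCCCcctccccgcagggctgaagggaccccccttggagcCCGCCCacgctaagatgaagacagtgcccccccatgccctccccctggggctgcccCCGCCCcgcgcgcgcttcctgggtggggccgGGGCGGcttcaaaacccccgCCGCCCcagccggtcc
Tgfb2, chr1:186705990-186706239, minus strand: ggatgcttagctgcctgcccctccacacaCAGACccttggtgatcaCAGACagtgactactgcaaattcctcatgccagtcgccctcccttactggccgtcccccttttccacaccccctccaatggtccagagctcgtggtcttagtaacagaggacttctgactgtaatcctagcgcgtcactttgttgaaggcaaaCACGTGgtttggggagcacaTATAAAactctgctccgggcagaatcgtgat
Tgfbi, chr13:56609336-56609585, plus strand: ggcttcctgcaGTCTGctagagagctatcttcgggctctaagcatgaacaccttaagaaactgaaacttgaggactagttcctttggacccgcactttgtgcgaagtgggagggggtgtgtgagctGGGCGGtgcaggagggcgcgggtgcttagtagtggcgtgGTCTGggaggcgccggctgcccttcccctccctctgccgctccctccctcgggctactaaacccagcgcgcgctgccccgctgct
The Tgfb1 window was 75.2% G and C, with 5 GC box cores and no match to the other motifs. The Tgfb2 window was 53.6% G and C, with a TATA element that begins 31 bases before the start, an E-box core at 51 bases and SMAD elements at 221 and 204 bases. The Tgfbi window was 62.4% G and C, with a GC box core at 124 bases and SMAD elements at 239 and 85 bases. Of 32851 RefSeq windows of the same length, 32.7% held the GC box core, 12.4% the TATA element, 6.0% the E-box core and 42.2% the SMAD element. Other members shared this split only in part. Tgfbr1, also lowest in Atg5 WT replicate 2, was like Tgfb1. Its window was 74.8% G and C, with GC box cores at 133 and 95 bases and no match to the other motifs. Tgfbr2, lowest in that library too, had a window of 58.4% G and C with a SMAD element at 160 bases and no other match. Inhba, also lowest in Atg5 WT replicate 2, had a window of 43.2% G and C with a TATA element and no GC box core. Smad3, also highest in that library, had a window of 69.2% G and C with GC box cores at 234 and 171 bases and no TATA element. These matches describe letters and do not show binding.

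The type I receptor gene Tgfbr1 (chromosome 4, 47353222 to 47414931) encodes the kinase that phosphorylates Smad2 and Smad3. Its FPKM was 86.45, 86.12 and 105 in the Atg5 KO-labelled libraries and 67.6, 35.9 and 86.41 in those labelled Atg5 WT. The groups met at their edges, where Atg5 WT replicate 3 lay between the lower Atg5 KO libraries. The groups differed on the log2 scale by 0.62 (SE 0.32, 95% interval -0.18 to 1.42; limma-trend adjusted p = 0.507), and this difference was 0.27 without Atg5 WT replicate 2 and 0.22 after adding the epithelial score as a covariate.

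The type II receptor gene Tgfbr2 (chromosome 9, 116087698 to 116175363) encodes the receptor that binds the ligand and activates Tgfbr1. It varied least of the 9 genes, 1.73-fold over the 6 libraries. Its FPKM was 76.7, 89.5 and 88.3 in the Atg5 KO-labelled libraries and 74.6, 57.5 and 99.6 in those labelled Atg5 WT. All Atg5 KO values lay within the Atg5 WT range. The difference in log2 units was 0.17 (SE 0.21, 95% interval -0.35 to 0.68; limma-trend adjusted p = 0.691), and this difference was -0.03 without Atg5 WT replicate 2.

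Smad3 (chromosome 9, 63646767 to 63757994), which carries the signal to the nucleus, was the member whose groups did not overlap. Its FPKM was 9.99, 8.64 and 7.73 in the Atg5 KO-labelled libraries and 11.3, 14.1 and 10.1 in those labelled Atg5 WT. The difference of -0.39 in log2 units (SE 0.16, 95% interval -0.78 to 0.003) did not pass (limma-trend adjusted p = 0.492; exact two-sided permutation p = 0.1 on FPKM, the smallest that 3 libraries against 3 allow). Non-overlapping groups were thus seen in 1 of 9 genes, 11.1%, against 18.6% of all tested genes. Without Atg5 WT replicate 2 the difference was -0.26, and with the epithelial score as a covariate it was -0.19.

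Smad7 (chromosome 18, 75367529 to 75395935), the inhibitor that TGF-beta induces, had an FPKM of 15.6, 19.3 and 12.5 in the Atg5 KO-labelled libraries and 22.5, 18.3 and 23.6 in those labelled Atg5 WT. The groups overlapped through Atg5 KO replicate 2 and Atg5 WT replicate 2. On the log2 scale the difference was -0.43 (SE 0.18, 95% interval -0.88 to 0.02; limma-trend adjusted p = 0.492). The difference was -0.54 without Atg5 WT replicate 2 and -0.49 after adding the epithelial score as a covariate.

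Tgfbi (chromosome 13, 56609603 to 56639339), which encodes a secreted matrix protein induced by TGF-beta, was the most abundant of the 9 genes. Its FPKM was 274, 391 and 341 in the Atg5 KO-labelled libraries and 313, 116 and 464 in those labelled Atg5 WT. The Atg5 KO values lay within the Atg5 WT range, and the 6 libraries fell in the same order for Tgfbi as for Tgfb1. The groups differed on the log2 scale by 0.37 (SE 0.51, 95% interval -0.89 to 1.63; limma-trend adjusted p = 0.718), and this difference was -0.20 without Atg5 WT replicate 2.

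**Figure D2:**
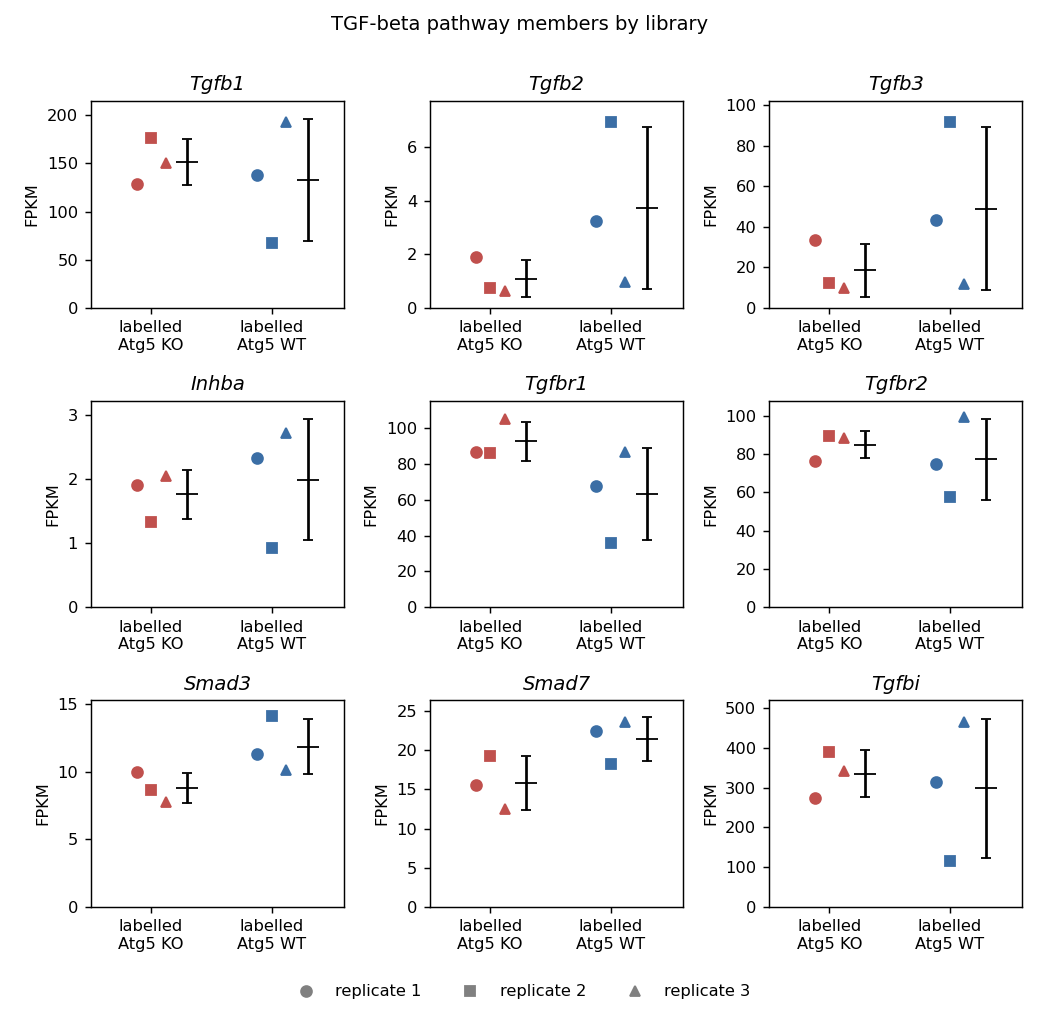
FPKM of the 9 genes in each library, with the libraries labelled Atg5 KO left of those labelled Atg5 WT, a marker shape for each replicate number, and the mean with its SD beside the points (n = 3 each). Atg5 WT replicate 2, the square, is the highest library for Tgfb2, Tgfb3 and Smad3 and the lowest for Tgfb1, Tgfbr1, Tgfbr2, Tgfbi and Inhba.

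By mean FPKM over the 6 libraries the order was Tgfbi (317), Tgfb1 (142), Tgfbr2 (81.0), Tgfbr1 (78.0), Tgfb3 (33.8), Smad7 (18.6), Smad3 (10.3), Tgfb2 (2.40) and Inhba (1.88). FPKM is per length, so these levels may be set side by side. Tgfbi exceeded Tgfb1 in 6 of 6 libraries, as Tgfb1 did Tgfbr2, Smad7 did Smad3 and Smad3 did Tgfb2. The neighbours Tgfbr2 and Tgfbr1 did not differ beyond their spread, with a mean log2 ratio of 0.11 and an SD of 0.33, nor did Tgfb3 and Smad7 (0.40, SD 1.28) or Tgfb2 and Inhba (-0.11, SD 1.70). Tgfbr1 exceeded Tgfb3 in 5 of 6 libraries.

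The ligand mix differed between libraries more than its total did. Summed FPKM of Tgfb1, Tgfb2 and Tgfb3 was 164, 189 and 160.3 in the Atg5 KO-labelled libraries and 184, 166 and 206 in those labelled Atg5 WT. Tgfb1 made up 78.3%, 93.2% and 93.5% of that sum in the Atg5 KO-labelled libraries and 74.8%, 40.6% and 93.8% in those labelled Atg5 WT. Nearly all of the rest was Tgfb3, which reached 55.2% in Atg5 WT replicate 2. The mean Tgfb1 share was 88.3% ± 8.68 in Atg5 KO-labelled and 69.7% ± 26.9 in Atg5 WT-labelled libraries (SD, n = 3 each; exact two-sided permutation p = 0.4). The difference of 18.6 percentage points was 4.07 without Atg5 WT replicate 2 and 30.6 without Atg5 WT replicate 3.

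The ratio of Tgfbr1 to Tgfbr2 separated the groups. It was 1.13, 0.962 and 1.19 in the Atg5 KO-labelled libraries and 0.906, 0.625 and 0.868 in those labelled Atg5 WT. The mean was 1.09 ± 0.118 in Atg5 KO-labelled and 0.800 ± 0.153 in Atg5 WT-labelled libraries (SD, n = 3 each; exact two-sided permutation p = 0.1, the smallest possible). The ratio of Tgfb3 to Tgfb2, at 17.8, 16.8 and 15.3 in Atg5 KO-labelled and 13.3, 13.2 and 12.3 in Atg5 WT-labelled libraries, was also higher in every library labelled Atg5 KO (exact two-sided permutation p = 0.1). These were 2 of 8 shares, sums and ratios computed with the values in view, and over the 8 the adjusted p was 0.4 for both. With a single library left out the differences lay between 0.206 and 0.360 for the receptors and between 3.09 and 4.37 for the ligands, where groups that do not overlap fix the sign. Tgfbi stood at 2.21 ± 0.0749 times Tgfb1 in the Atg5 KO-labelled libraries and 2.13 ± 0.363 times in those labelled Atg5 WT (SD, n = 3 each; exact two-sided permutation p = 0.9). Smad7 was 1.80 ± 0.374 times Smad3 in Atg5 KO-labelled and 1.87 ± 0.525 times in Atg5 WT-labelled libraries (SD, n = 3 each; exact two-sided permutation p = 0.9).

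**Figure D3:**
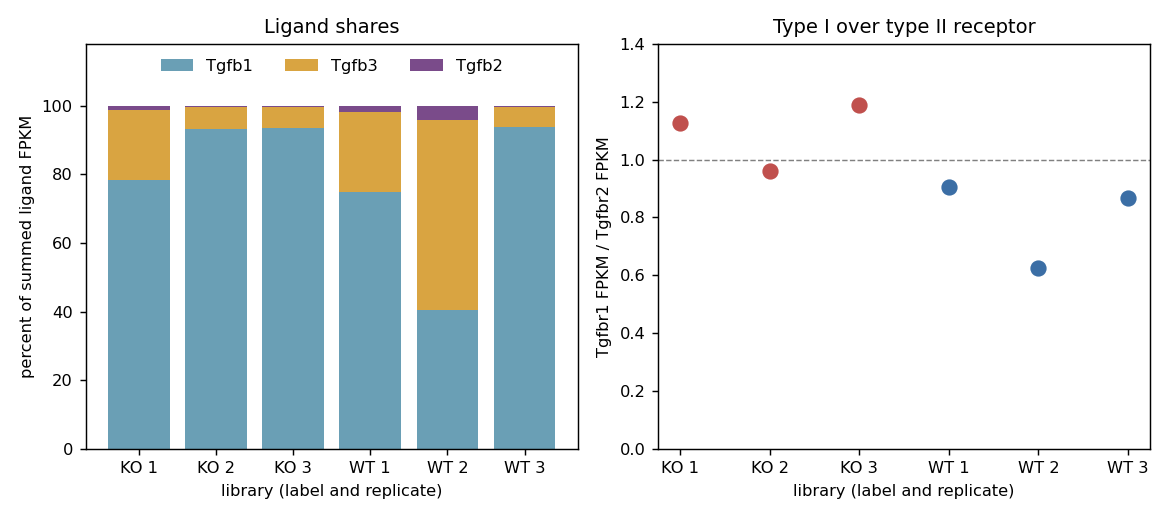
Left, the percent of the summed FPKM of Tgfb1, Tgfb3 and Tgfb2 that each ligand makes up in each library; right, the FPKM of Tgfbr1 divided by that of Tgfbr2, with a dashed line at 1. Tgfb3 is the larger part in Atg5 WT replicate 2, at 55.2%, and the receptor ratio is between 0.962 and 1.19 in the Atg5 KO-labelled libraries and between 0.625 and 0.906 in those labelled Atg5 WT.

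Several members varied over the libraries together with marker levels of cell types. The values describe 6 libraries, and all genes of a library share its cell mix and depth. Pearson's r was 1.0 between Tgfb3 and the epithelial score and 0.98 between Tgfb2 and that score. For Tgfbr1 and the macrophage score r was 0.99, as it was for Smad3 and the fibroblast score. Between Smad7 and the macrophage score r was -0.17. These pairs were not exclusive. Smad3 had r of 0.97 with the endothelial, 0.92 with the epithelial and -0.91 with the macrophage score. Tgfb2 had 0.93 with the fibroblast and 0.94 with the endothelial score, and Tgfbr1 had -0.96 with the fibroblast score. Tgfb3 had the same order over the 6 libraries as the epithelial marker score, which was 5.16, 3.88 and 3.30 in the Atg5 KO-labelled libraries and 5.77, 6.64 and 3.81 in those labelled Atg5 WT (exact two-sided permutation p = 0.3). The 14 epithelial markers summed to 206 to 1137 FPKM in the Atg5 KO-labelled libraries and 379 to 3118 in those labelled Atg5 WT. All 13 that were tested were lower on average in the Atg5 KO-labelled libraries, and for each the groups overlapped. Their median log2 difference was -1.49, and it was -0.83 with Atg5 WT replicate 2 left out.

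Smad3 had the library order of the fibroblast and pericyte score, which was 3.15, 2.97 and 2.09 in the Atg5 KO-labelled libraries and 4.13, 5.46 and 3.50 in those labelled Atg5 WT (exact two-sided permutation p = 0.1). Its 14 markers, led by Sparc and Col3a1, summed to 77.6 to 211 FPKM in the Atg5 KO-labelled libraries and 288 to 1548 in those labelled Atg5 WT. The same order held for the endothelial score, at 1.69, 1.44 and 0.91 in Atg5 KO-labelled and 2.69, 3.11 and 1.85 in Atg5 WT-labelled libraries (exact two-sided permutation p = 0.1). All 14 and all 9 markers had lower means, with medians of -1.72 and -1.18 that were -1.16 and -0.93 without Atg5 WT replicate 2. The groups did not overlap for 13 of 14 and 5 of 9 of them, against 9.41% of all tested genes that were lower in the same way.

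Tgfb1, Tgfbr1, Tgfbr2, Tgfbi and Inhba were lowest in Atg5 WT replicate 2, where the macrophage score was lowest, and Tgfbr1 was highest in Atg5 KO replicate 3, where that score was highest. That score was 8.46, 8.61 and 8.80 in the Atg5 KO-labelled libraries and 8.14, 6.91 and 8.65 in those labelled Atg5 WT (exact two-sided permutation p = 0.3). Its 12 markers summed to 9526 to 12063 FPKM in Atg5 KO-labelled and 3243 to 11216 FPKM in Atg5 WT-labelled libraries. The part of these marker levels in the differences of the 9 genes was not tested beyond the covariate fit. In bulk libraries fewer cells of a type and less RNA per cell cannot be told apart.

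The remaining marker lists had negative medians. In log2 units these were -1.67 over 5 mast cell markers, -0.87 over 5 neutrophil markers, -0.22 over 3 T and NK cell markers, -0.89 over 3 B cell markers, -0.26 over 5 dendritic cell markers and -0.44 over 2 platelet markers. Not every marker was lower, as 1 neutrophil, 1 T and NK cell, 1 B cell and 2 dendritic cell markers were higher on average. Batf3, a dendritic cell marker, stood at 27.0, 26.0 and 30.2 in Atg5 KO-labelled and 14.5, 13.5 and 18.0 in Atg5 WT-labelled libraries. The groups did not overlap for 4 mast cell, 1 neutrophil, 1 B cell and 1 dendritic cell marker, against 18.6% of all tested genes. The platelet markers, included because platelets store Tgfb1, summed to 1.67 to 2.71 FPKM in Atg5 KO-labelled and 3.96 to 4.20 FPKM in Atg5 WT-labelled libraries. Without Atg5 WT replicate 2 just 1 platelet marker was tested, at -0.70. No listed marker was at 0 in all libraries, and limma-trend called 0 of the markers of any list.

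**Figure D4:**
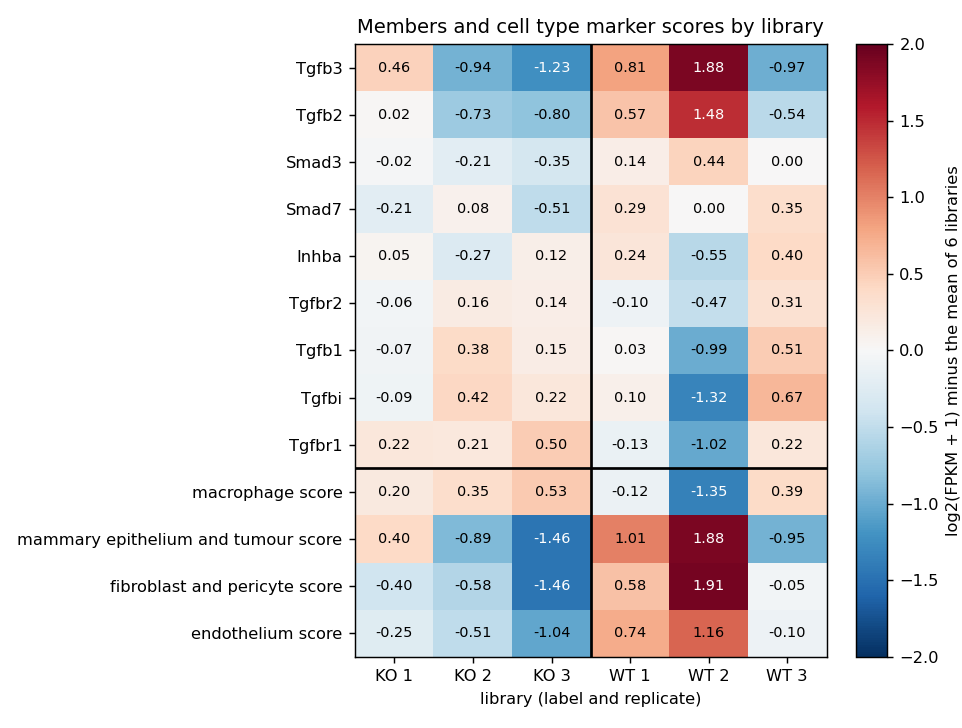
Log2(FPKM + 1) of each gene and 4 cell type marker scores in each library, as a difference from the mean over 6 libraries (red higher, blue lower), with the libraries labelled Atg5 KO left of the line. Tgfb3 and the epithelial score both reach 1.88 above their mean in Atg5 WT replicate 2, where Tgfbi is 1.32 below its mean and the macrophage score 1.35 below.

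Over the same libraries the genes most like each member were found among 7972 or 7973 others with a mean FPKM of at least 5, by Pearson's r of log2(FPKM + 1) over 6 libraries. The values are the highest of many and are given as a description without a test, and all genes of a library share its depth and cell mix. For Tgfb1 these were Snx9, Ybx1 and Rab8b (r from 0.9995 to 0.9996) and for Tgfbi Mef2c, Anxa5 and Mapre2 (0.9993 to 0.9996). For Tgfbr1 they included Man2b1 and Ly86 (0.9997 and 0.9994), where Man2b1 encodes a lysosomal mannosidase and Ly86 the partner of a Toll-like receptor homologue. For Tgfbr2 they were Tfpi, Nt5dc2 and Dtx2 (0.9920 to 0.9973). For Tgfb3 they were Me1, Ptk7 and Nhsl1 (0.9996 to 0.9999), and for Tgfb2 Rpl35, Ddit4 and Pde7a (0.9993 to 0.9998). Smad3 was most like Zbed6, Ctps and Actr1b (0.9961 to 0.9967), and Inhba most like Nploc4, Ptgr2 and Slfn5 (0.9672 to 0.9779). The genes nearest to Smad7 were the mitochondrial carrier Slc25a33, the arginine transporter Slc7a1 and the EGF receptor ligand Areg (0.9929 to 0.9978). Areg had an FPKM of 3.78, 8.21 and 1.93 in the Atg5 KO-labelled libraries and 10.9, 6.91 and 15.7 in those labelled Atg5 WT.

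Other genes of the pathway were read from the same fit, by role. Of 102 listed genes 77 were tested, and limma-trend called 0 of them. Their mean was higher for 18 and lower for 59, with a median of -0.30 beside -0.09 for all genes, and without Atg5 WT replicate 2 it was higher for 15 and lower for 58, with a median of -0.27. Groups did not overlap for 18 of the 77, 4 higher and 14 lower, against 9.2% and 9.41% of all genes.

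Among 6 other ligand genes tested, 3 were higher and 3 lower (median -0.09), and 1 was higher and 5 were lower when Atg5 WT replicate 2 was left out, with a median of -0.34. Inhbb, a second activin subunit, averaged 6.31 ± 4.46 FPKM in the Atg5 KO-labelled libraries and 19.9 ± 17.9 in those labelled Atg5 WT (SD, n = 3 each). Bmp1 averaged 2.70 ± 1.49 in Atg5 KO-labelled and 10.8 ± 8.51 in Atg5 WT-labelled libraries, and its product, despite the name, is a procollagen proteinase. Inhbb and Bmp1 were highest in Atg5 WT replicate 2, as the epithelial score was, and their log2 differences of -1.20 and -1.49 became -0.49 and -0.93 when that library was left out. The part of epithelial cells in these values was not tested. Bmp2 and Gdf15, a stress-induced family member, had log2 differences of -0.26 and 0.41, and without Atg5 WT replicate 2 these were -0.41 and -0.27.

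Of 17 genes of the latent complex and its activation, 2 were higher and 15 lower, with a median of -0.70 that was -0.32 without Atg5 WT replicate 2. Itgav, the integrin alpha chain shared by the integrins that release TGF-beta, had an FPKM of 19.9, 19.9 and 20.0 in the Atg5 KO-labelled libraries and 23.6, 24.2 and 26.7 in those labelled Atg5 WT. These groups did not overlap, and the difference of -0.30 in log2 units did not pass (SE 0.09, limma-trend adjusted p = 0.492). The latent TGF-beta binding protein Ltbp4, the fibrillin Fbn1 and the activator thrombospondin Thbs1 had log2 differences of -1.41, -1.77 and -1.25, which were -0.90, -0.93 and -0.87 without Atg5 WT replicate 2. Fibroblast markers, at 77.6 to 211 FPKM in Atg5 KO-labelled and 288 to 1548 FPKM in Atg5 WT-labelled libraries, were lower in the same libraries, and their part in these values was not tested.

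Of 9 other receptor genes, 2 were higher and 7 lower, with a median of -0.21 that was -0.07 without Atg5 WT replicate 2. Acvrl1, a type I receptor best known from endothelium, had an FPKM of 28.4, 28.0 and 33.5 in the Atg5 KO-labelled libraries and 20.2, 15.7 and 23.1 in those labelled Atg5 WT. The groups did not overlap, and the difference in log2 units was 0.59 (SE 0.16, limma-trend adjusted p = 0.492). In the Atg5 KO-labelled libraries the mean endothelial marker score was lower and the mean macrophage marker score higher. The part of either cell type in the Acvrl1 values was not tested. The co-receptor Tgfbr3 averaged 1.37 ± 1.07 in Atg5 KO-labelled and 4.19 ± 3.56 in Atg5 WT-labelled libraries, and the activin receptors Acvr2b and Acvr1 had log2 differences of -0.43 and -0.19. Leaving out Atg5 WT replicate 2 took the difference of Tgfbr3 to -0.45, beside -0.98 with it, and those of Acvr2b and Acvr1 to -0.24 and -0.07.

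Among the other Smad genes 1 was higher and 4 were lower, with a median of -0.19 that was -0.12 without Atg5 WT replicate 2. Smad6, the inhibitor of bone morphogenetic protein signals, averaged 2.20 ± 0.372 in Atg5 KO-labelled and 4.10 ± 1.14 in Atg5 WT-labelled libraries, and the shared partner Smad4 averaged 17.1 ± 0.447 in Atg5 KO-labelled and 19.6 ± 2.01 in Atg5 WT-labelled libraries (SD, n = 3 each). Neither pair of groups overlapped and neither gene passed. The log2 differences of Smad4, Smad5 and Smad2 were -0.19, -0.42 and 0.11, and they were -0.12, -0.16 and 0.03 without Atg5 WT replicate 2. Smad2, which acts beside Smad3, stood at 15.8 ± 0.892 in Atg5 KO-labelled and 14.6 ± 1.59 in Atg5 WT-labelled libraries.

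Of 16 inhibitor and adaptor genes 3 were higher and 13 lower, with a median of -0.29 that was -0.17 without Atg5 WT replicate 2. Strap, which binds the receptors, had an FPKM of 29.6, 30.1 and 29.0 in the Atg5 KO-labelled libraries and 33.7, 34.5 and 34.1 in those labelled Atg5 WT, a narrow spread in both groups and a log2 difference of -0.20 (SE 0.08, limma-trend adjusted p = 0.492). Smurf1, a ubiquitin ligase that Smad7 brings to the receptor, averaged 11.1 ± 1.08 in Atg5 KO-labelled and 14.6 ± 2.44 in Atg5 WT-labelled libraries, and Fkbp1a, which holds the type I receptor inactive, 70.7 ± 3.84 in Atg5 KO-labelled and 80.2 ± 1.73 in Atg5 WT-labelled libraries. The secreted Fstl1, made by mesenchymal cells, averaged 5.43 ± 2.60 in Atg5 KO-labelled and 36.1 ± 40.7 in Atg5 WT-labelled libraries. Its log2 difference was -2.01, and it was -1.11 once Atg5 WT replicate 2, its highest library at 82.8 FPKM, was left out. Fibroblast markers were lower in the same libraries, and their part was not tested.

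All 16 tested target genes of general use were lower on average in the Atg5 KO-labelled libraries, with a median of -0.63, and with limma-voom 14 were lower and 2 higher. limma-trend called 0 of the 16. The basement membrane collagen Col4a1 averaged 9.31 ± 4.20 in Atg5 KO-labelled and 43.8 ± 23.4 in Atg5 WT-labelled libraries, with a log2 difference of -2.08 that was -1.69 without Atg5 WT replicate 2. Timp1, an inhibitor of matrix proteinases, averaged 6.78 ± 3.21 in Atg5 KO-labelled and 21.7 ± 13.9 in Atg5 WT-labelled libraries, Col5a1 1.75 ± 0.794 in Atg5 KO-labelled and 11.4 ± 12.1 in Atg5 WT-labelled libraries, and Id1, a target of bone morphogenetic proteins, 6.69 ± 1.30 in Atg5 KO-labelled and 15.3 ± 7.42 in Atg5 WT-labelled libraries. Without that library the log2 differences were -0.65 for Id1, -0.99 for Timp1 and -1.01 for Col5a1, beside -0.98, -1.46 and -1.77 with it. The collagens and Timp1 are also made by fibroblasts and endothelium, whose markers were lower in the same libraries, and the part of those cells was not tested.

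Genes listed as dependent on TGF-beta in microglia and other macrophages had mostly higher means. Of the 9, 7 were higher and 2 lower, against 37.2% and 62.8% of all tested genes. Their median was 0.75, and it was 0.29 without Atg5 WT replicate 2. The list does not say whether TGF-beta raises or lowers each gene, so this split does not measure TGF-beta signalling. Tmem119 had an FPKM of 164, 136 and 197 in the Atg5 KO-labelled libraries and 96.5, 40.9 and 131 in those labelled Atg5 WT. The chemokine receptor Cx3cr1 had 181, 156 and 234 in Atg5 KO-labelled and 113, 48.7 and 154 in Atg5 WT-labelled libraries. For both genes the groups did not overlap, and neither passed (limma-trend adjusted p = 0.492 and 0.494). They were 2 of the 9, against 9.2% of all tested genes that were higher without overlap. Gpr34 averaged 41.8 ± 6.78 in Atg5 KO-labelled and 25.3 ± 14.5 in Atg5 WT-labelled libraries, and Spp1, the osteopontin gene, 569 ± 228 in Atg5 KO-labelled and 1403 ± 802 in Atg5 WT-labelled libraries. The log2 differences of Tmem119, Cx3cr1, Gpr34 and Spp1 were 1.02, 0.98, 0.87 and -1.20, and they became 0.54, 0.51, 0.37 and -0.77 on leaving out Atg5 WT replicate 2. Macrophage markers, Cx3cr1 among them, had higher means in the same libraries, with a median log2 difference of 0.84 that was 0.33 without Atg5 WT replicate 2.

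**Figure D5:**
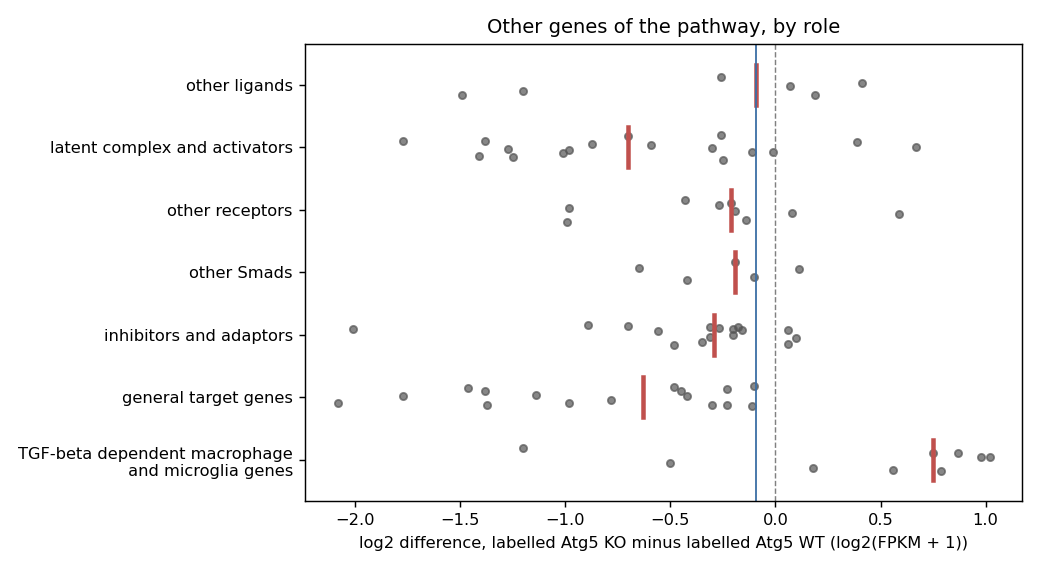
Log2 difference (labelled Atg5 KO minus labelled Atg5 WT, on the log2(FPKM + 1) scale) of each other tested gene of the pathway, by role, with the median of each role in red, the median of all tested genes (-0.09) in blue and a dashed line at 0. The medians of the general target genes (-0.63) and of the genes listed as dependent on TGF-beta in macrophages (0.75) lie on opposite sides of 0.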

How the data were processed

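The authors deposited FPKM for 35275 genes in 6 columns, each the sample's own per the file headers and the labels. The submitters' processing notes name STAR, CASAVA and the mm10 build; counter, strand setting and annotation release were not stated there. Multiplied by the deposited gene length (in bases, another value in the table), 100.0% of values were whole reads within 0.01 read. Whether a read is a single read or a pair is not given. Reads of overlapping, antisense or near-identical genes, such as those of Lyz2, can be split between genes.

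Groups came from the labels, and p-values measure the spread between the 3 libraries of each group. Values were log2(FPKM + 1), filtered at a mean FPKM of at least 1, and fitted with limma 3.58.1 (R 4.3.3; trend, group as the term, two-sided, Benjamini-Hochberg, threshold 0.05). Fold changes on this scale understate low genes. Single values per library had an exact permutation test in scipy 1.17.1. The fits were first run on simulated reads drawn without cell mix differences between libraries, so that run does not cover such differences. The 9 genes and all lists were chosen with earlier results of these data known. Named genes are the 9, Atg5, Lyz2, up to 4 of smallest p per pathway list, 3 most alike per member and the 2 highest per marker list, not all of which are printed; 1 such gene is not reported here. Of 85 marker entries 84 matched by symbol and 1 by a synonym, and all 103 pathway entries matched. Alternatives were other pseudocounts (0.1 and 0.5), filters, scalings, limma-voom with trimmed-mean scaling, an epithelial score covariate, a replicate block and leaving out each library.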

Additional observations from a re-analysis of the deposited data

How the results depend on the processing

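Across 15 alternatives the count of the 9 genes called stayed at 0, as did the count of the other pathway genes, and over 133 refits of single members the adjusted p ran from 0.128 to 0.976. Over all genes, limma-trend called 0 higher and 1 lower. The lower count was 0 with no filter on low values, with median-ratio scaling, with limma-voom and with the replicate block. Leaving out a library in turn gave 0 to 2 higher genes and 0 to 16 lower, with both upper values without Atg5 WT replicate 2. With the epithelial score as a covariate the sign turned for Tgfb1 (-0.20), Tgfb3 (0.12), Tgfbr2 (-0.12) and Tgfbi (-0.29). Inhba was 0.11 with quantile normalization and 0.15 with limma-voom. Leaving out a library gave -0.12 to 0.63 for Tgfb1, -0.03 to 0.36 for Tgfbr2, -0.20 to 0.79 for Tgfbi and -0.36 to 0.12 for Inhba. Tgfb2 (-1.53 to -0.52), Tgfb3 (-1.91 to -0.49), Tgfbr1 (0.27 to 0.89), Smad3 (-0.48 to -0.26) and Smad7 (-0.58 to -0.28) kept their sign in those fits. The cause of the changes was not tested. Replicate numbers were not taken to pair the libraries. Deviations of same-numbered libraries correlated over genes at 0.212, -0.376 and 0.59. This cannot decide whether the libraries were paired, because all genes of a library share its cell mix. The replicate block changed no call of the 9 genes, of which 0 were called without it. Ratios without each library were added after seeing the data. At a mean FPKM of 5 Tgfb2 and Inhba are not tested. With 3 libraries a group, the intervals of Tgfb2, Tgfb3 and Tgfbi are wide, and depth limits Inhba at 35 to 100 reads.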
